A study of Homo sapiens with 17 samples.

Results

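The genes described here make sterols and fatty acids or control that synthesis: SREBF1, SREBF2, ACACA, ACACB, FASN, SCD, HMGCS1 and CYP51A1. They were chosen by symbol, and all 8 were found among the 17958 genes measured. A gene was represented by the probe set that carries its symbol alone, and by the brightest such probe set where there were several, which applied to SCD and CYP51A1. All values below are log2 levels, so a difference of 1 is a doubling, and levels of different genes are not set against each other because probe sets differ in brightness.

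Cells make fatty acids from acetyl-CoA and cholesterol from the same starting material by way of mevalonate. The sterol regulatory element binding proteins, SREBP-1 and SREBP-2, are membrane-bound transcription factors that are cut and sent to the nucleus when sterols are scarce, and they switch on most enzymes of both routes. LKB1, the kinase encoded by STK11, activates AMPK, which phosphorylates and inhibits the acetyl-CoA carboxylases and HMG-CoA reductase and restrains SREBP processing; lung adenocarcinomas often lose LKB1.

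RNA was measured on 17 Affymetrix arrays, each hybridised with 1 sample of the human lung adenocarcinoma lines A549 or H2122. In each line, cells carried a pBABE retrovirus that was empty (pBABE), encoded wild-type LKB1 (LKB1) or encoded the kinase-dead mutant K78I (K78I), and all cells had been selected with puromycin at 1 µg/mL for 2 weeks and grown in 5% serum. Each group had 3 arrays, except H2122 pBABE with 2, and no label says whether replicates were separate transductions or cultures, so the spread behind every p-value is that between these samples and may be technical. The design asks what restored LKB1 does to these genes, with the empty vector and the inactive kinase as controls.

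Some arrays stood apart from their labels or their group. STK11 followed the sample titles in H2122, at 6.22 to 6.33 with the empty vector and 11.20 to 11.35 with either LKB1 form. In A549 the array labelled pBABE replicate 3 read 10.52, inside the range of the LKB1-carrying arrays, and the array labelled K78I replicate 2 read 7.14, inside the range of the other pBABE arrays at 6.88 and 7.38. For 3 H2122 samples, namely pBABE replicate 2, LKB1 replicate 3 and K78I replicate 3, title and source name disagree on the construct; titles were followed. With the source names used instead, 1 of the 17958 genes was called in H2122, and no gene of the lipid lists was. The mean of 24 cell cycle genes stood at -0.88 against the line mean on A549 K78I replicate 2, -0.37 on A549 pBABE replicate 1 and -1.37 on H2122 pBABE replicate 2, and between -0.09 and 0.33 on the other 14 arrays. Of the epithelial markers, keratins KRT7, KRT8 and KRT18 were high in both lines. KRT19 was at 4.19 to 5.48 in A549 against 10.23 to 11.18 in H2122, and EPCAM at 5.89 to 7.65 against 11.13 to 11.45. CDH1 was at 8.86 to 11.36 in A549 and 10.19 to 10.86 in H2122. The lung markers NKX2-1, SFTPB, SFTPC and NAPSA read at most 5.95 on any array. The blood, endothelial and fibroblast markers measured read at most 6.32.

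The promoter windows of 4 members are shown because they carry, or lack, the letters by which SREBP and its partner NF-Y are known to act, and because HMGCS1 and CYP51A1 were lower together in A549. They are the 250 bases before the annotated start, 5′ to 3′ on the gene's strand, from RefSeq on GRCh38.p14; capitals mark the sterol regulatory element TCACNCCAC and the NF-Y box CCAAT, either of them on either strand.
SREBF2, chr22:41832855-41833104, plus strand: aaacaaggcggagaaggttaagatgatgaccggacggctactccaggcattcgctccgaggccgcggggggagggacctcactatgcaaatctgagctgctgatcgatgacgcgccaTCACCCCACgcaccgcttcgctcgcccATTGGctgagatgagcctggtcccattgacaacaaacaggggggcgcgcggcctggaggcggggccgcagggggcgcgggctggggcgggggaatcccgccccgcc
HMGCS1, chr5:43313413-43313662, minus strand: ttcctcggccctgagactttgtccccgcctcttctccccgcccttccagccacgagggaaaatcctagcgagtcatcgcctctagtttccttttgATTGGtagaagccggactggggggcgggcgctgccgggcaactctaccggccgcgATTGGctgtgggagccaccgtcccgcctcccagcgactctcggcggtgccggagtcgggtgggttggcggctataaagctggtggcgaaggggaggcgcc
CYP51A1, chr7:92134478-92134727, minus strand: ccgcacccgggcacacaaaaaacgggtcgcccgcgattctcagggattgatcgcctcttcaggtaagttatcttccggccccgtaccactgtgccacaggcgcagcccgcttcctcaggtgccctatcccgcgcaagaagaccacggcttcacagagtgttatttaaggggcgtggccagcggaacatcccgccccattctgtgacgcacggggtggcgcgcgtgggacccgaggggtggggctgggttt
SCD, chr10:100346983-100347232, plus strand: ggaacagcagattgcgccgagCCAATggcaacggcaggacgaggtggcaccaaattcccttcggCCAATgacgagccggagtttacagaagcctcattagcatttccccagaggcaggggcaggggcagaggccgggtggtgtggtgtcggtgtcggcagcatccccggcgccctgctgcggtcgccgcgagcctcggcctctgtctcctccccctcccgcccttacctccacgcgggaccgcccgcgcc
SREBF2 was the only member with a match to TCACNCCAC in any of the 11 windows of the 7 members that have an entry, at bases -133 to -125, with an NF-Y box at -106 to -102. That element occurred in 310 of 35116 promoter windows of this length, or 0.883%. The HMGCS1 window shown held 2 NF-Y boxes, at -155 to -151 and -100 to -96, while the window of its other annotated start, chr5:43313182-43313431, held 0, and the SCD window held 2, at -229 to -225 and -186 to -182; 32% of all windows hold at least 1. The CYP51A1 window held neither motif, although it held a GC box, GGGCGG on either strand, as 42.6% of windows do. FASN has no entry. A match is only a match of letters, and a missing one says only that these letters are not in this window.

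In A549, LKB1 came with lower levels of 2 of the 8 genes, both in the sterol branch: HMGCS1, the cytosolic HMG-CoA synthase that makes the substrate of HMG-CoA reductase, and CYP51A1, the lanosterol demethylase. In H2122 no member passed the test. Across the genome 8.44% of genes passed it in A549, that is 1515 of 17958, and 7.28% in H2122. In A549 these were 985 higher and 530 lower genes, or 774 and 718 after centring each array on its median. The median difference of the 8 members was -0.01 in A549 and -0.13 in H2122, beside -0.02 and -0.04 over all genes.

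**Figure D1:**
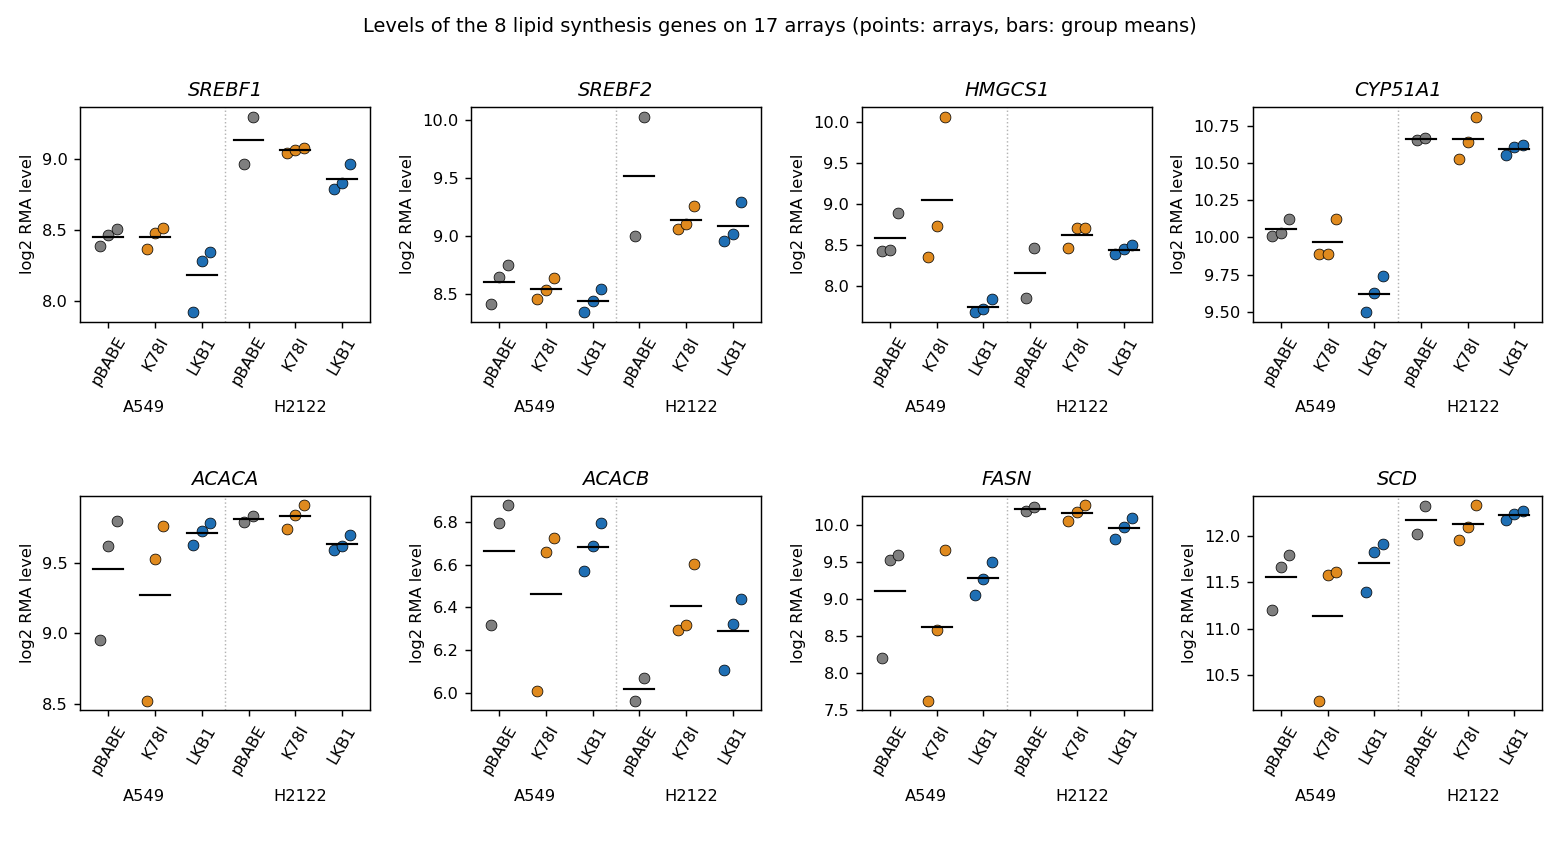
Log2 RMA level (vertical axis) of each of the 8 genes on 17 arrays, by cell line and construct; each point is an array and each bar a group mean. The 3 A549 LKB1 arrays lie below all 6 A549 control arrays for HMGCS1, CYP51A1 and SREBF1, and the H2122 groups lie closer together for HMGCS1 and CYP51A1.

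HMGCS1 read 7.71, 7.84 and 7.68 on the A549 LKB1 arrays. It read 8.88, 8.42 and 8.44 on the A549 pBABE arrays and 8.73, 10.06 and 8.35 on the K78I arrays. Every LKB1 array was thus below every control, and the 10.06 of K78I replicate 2 stood far above the others. The difference from the mean of both controls was -1.07 ± 0.27 (SE; limma, adjusted p = 0.0217), a fall to 0.476 of the control level. Without the 3 control arrays low in cell cycle genes, of which K78I replicate 2 is one, it was -0.74 (limma, adjusted p = 0.00074), and without the 2 A549 controls whose STK11 goes against the label it was -0.85 (limma, adjusted p = 0.00282). Leaving out A549 LKB1 replicate 1, 2 or 3 ended the call, at -1.05, -1.12 and -1.04 with adjusted p of 0.0859, 0.0591 and 0.0982 by limma, and so did a limma fit to A549 alone (adjusted p = 0.102). Against K78I alone HMGCS1 fell by 1.30 ± 0.31 (limma, adjusted p = 0.0236), while against pBABE alone the difference of -0.84 ± 0.31 did not pass (limma, adjusted p = 0.151). Without K78I replicate 2, whose STK11 goes against its label, the difference from K78I was -0.80 (limma, adjusted p = 0.0301). Without both A549 control arrays whose STK11 goes against the label, the difference from pBABE passed at -0.91 (limma, adjusted p = 0.00621). The comparison with K78I lost its call without any one of the A549 LKB1 arrays too, at limma adjusted p between 0.0564 and 0.0906, and without the 3 arrays whose labels conflict (adjusted p = 0.054).

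CYP51A1 read 9.50, 9.74 and 9.63 on the A549 LKB1 arrays. It read 10.13, 10.03 and 10.01 with pBABE and 9.89, 10.12 and 9.89 with K78I, so these groups did not overlap either. CYP51A1 fell by 0.39 ± 0.09 (limma, adjusted p = 0.0152), smaller than that of HMGCS1 but over a narrower spread. It no longer passed without A549 LKB1 replicate 1, at -0.33 (limma, adjusted p = 0.105), or without LKB1 replicate 3, at -0.39 (limma, adjusted p = 0.0693), or in a fit to A549 alone (limma, adjusted p = 0.0579). Against pBABE alone CYP51A1 fell by 0.43 ± 0.11 (limma, adjusted p = 0.0249), and the difference of -0.35 ± 0.11 from K78I did not pass (limma, adjusted p = 0.077). The call against pBABE was lost without pBABE replicate 1 or 2 or without LKB1 replicate 1 or 3, at limma adjusted p of 0.108, 0.0754, 0.12 and 0.0841. Without the 2 controls whose STK11 goes against the label the difference from both controls was -0.36 (limma, adjusted p = 0.0266). The gene's other, dimmer probe set gave -0.58 against both controls (limma, adjusted p = 0.00568).

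SREBF1, which encodes SREBP-1, the form tied mainly to fatty acid synthesis, was the third member whose A549 LKB1 arrays all lay below the controls. It read 8.35, 7.93 and 8.28 with LKB1, 8.46, 8.51 and 8.39 with pBABE, and 8.51, 8.37 and 8.48 with K78I. The gap between the highest LKB1 array and the lowest control was small, and the difference of -0.27 ± 0.11 did not pass (limma, adjusted p = 0.14). It was called, at -0.34, when each array was centred on its median (limma, adjusted p = 0.0429), and it was -0.14 without LKB1 replicate 2 (limma, adjusted p = 0.54). Separation of this kind, with every LKB1 array lower, was seen for 3 of 8 members in A549, where 6.65% of all genes showed it, and for ACACA alone in H2122, where 8.82% did.

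SREBF2, which encodes SREBP-2, the form tied mainly to cholesterol synthesis, read 8.54, 8.43 and 8.34 with LKB1 in A549, against 8.75, 8.65 and 8.41 with pBABE and 8.53, 8.46 and 8.64 with K78I. The groups overlapped, and the difference of -0.13 ± 0.17 did not pass (limma, adjusted p = 0.734). Its 95% interval ran from -0.49 to 0.23.

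The fatty acid branch did not pass the test in A549, and its controls were spread widely. FASN, the fatty acid synthase, read 9.06, 9.51 and 9.28 with LKB1, but 8.20, 9.59 and 9.53 with pBABE and 9.66, 7.63 and 8.59 with K78I. ACACA, acetyl-CoA carboxylase 1, which makes the malonyl-CoA that FASN uses, read 9.63, 9.78 and 9.73 with LKB1, 8.95, 9.62 and 9.80 with pBABE and 9.76, 8.52 and 9.53 with K78I. SCD, the stearoyl-CoA desaturase that makes monounsaturated fatty acids, read 11.91, 11.39 and 11.83 with LKB1, 11.20, 11.79 and 11.67 with pBABE and 11.62, 10.22 and 11.58 with K78I. For each of these genes the low control values came from K78I replicate 2 and pBABE replicate 1, with K78I replicate 3 low for FASN as well; the other control arrays overlapped the LKB1 arrays or lay close to them. ACACB, acetyl-CoA carboxylase 2, whose malonyl-CoA limits fatty acid entry into mitochondria, read 6.57, 6.80 and 6.69 with LKB1, 6.32, 6.88 and 6.79 with pBABE and 6.73, 6.01 and 6.66 with K78I, and had its lowest values on the same arrays.

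The differences in A549 were 0.41 ± 0.35 for FASN, 0.35 ± 0.22 for ACACA, 0.36 ± 0.25 for SCD and 0.12 ± 0.16 for ACACB, with limma adjusted p of 0.563, 0.406, 0.452 and 0.744. Without the 3 control arrays low in cell cycle genes they were -0.06, 0.03, 0.05 and -0.08, and none passed. The 95% interval of the FASN difference ran from -0.33 to 1.16, so a doubling was within it.

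**Figure D2:**
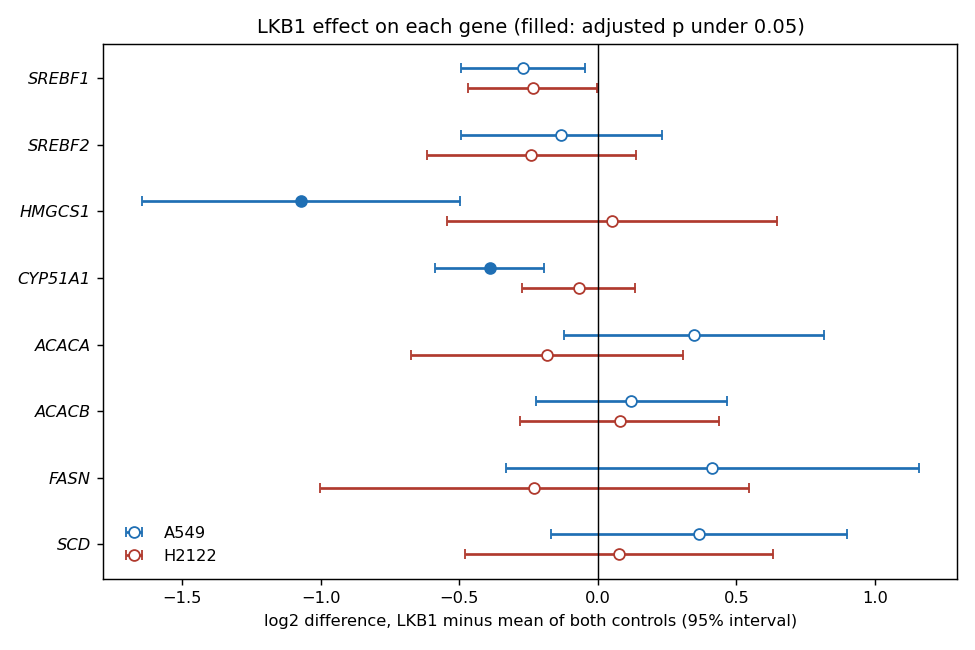
Log2 difference of LKB1 from the mean of both controls (horizontal axis) for each of the 8 genes in A549 and in H2122, with 95% intervals from limma; filled points passed an adjusted p of 0.05. HMGCS1 at -1.07 and CYP51A1 at -0.39 in A549 are the filled points, and the widest interval is that of FASN in H2122, from -1.003 to 0.55. Each gene's intervals use a spread shared by both lines, and FASN varied far more in A549 than in H2122.

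In H2122 neither sterol enzyme passed the test. HMGCS1 read 8.50, 8.44 and 8.38 with LKB1, 8.46 and 7.85 with pBABE, and 8.46, 8.70 and 8.70 with K78I, a difference of 0.05 ± 0.28 (limma, adjusted p = 0.96). The LKB1 arrays lay within the range of the controls. CYP51A1 read 10.61, 10.62 and 10.55 with LKB1, 10.67 and 10.66 with pBABE, and 10.53, 10.82 and 10.64 with K78I, with a difference of -0.07 ± 0.10 (limma, adjusted p = 0.8). Its 95% interval ran from -0.27 to 0.14, and that in A549 from -0.59 to -0.19.

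SREBF1 read 8.79, 8.83 and 8.97 with LKB1 in H2122, against 8.96 and 9.30 with pBABE and 9.08, 9.07 and 9.05 with K78I. LKB1 replicates 1 and 2 were below all controls, and replicate 3 lay at the level of the lowest control. The difference of -0.24 ± 0.11 did not pass (limma, adjusted p = 0.255), and it was -0.15 without pBABE replicate 2. SREBF2 read 8.95, 9.30 and 9.02 with LKB1, 8.999 and 10.03 with pBABE, and 9.06, 9.26 and 9.10 with K78I. One control array, pBABE replicate 2 at 10.03, set its difference: -0.24 ± 0.18 with that array (limma, adjusted p = 0.541), 0.02 without it, and -0.50 without pBABE replicate 1 (limma, adjusted p = 0.0186), the only setting in which a member was called in this comparison.

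ACACA read 9.62, 9.59 and 9.70 with LKB1 in H2122, 9.79 and 9.83 with pBABE, and 9.74, 9.84 and 9.91 with K78I. All LKB1 arrays were lower, by a difference of -0.18 ± 0.23 that did not pass (limma, adjusted p = 0.766); the SE comes from a spread shared with A549, where ACACA varied far more. FASN read 9.82, 9.98 and 10.10 with LKB1, 10.25 and 10.19 with pBABE, and 10.18, 10.06 and 10.27 with K78I, a difference of -0.23 ± 0.36. FASN too varied far more in A549, and its SE rests on the shared spread. SCD read 12.17, 12.27 and 12.24 with LKB1, 12.02 and 12.32 with pBABE, and 11.95, 12.33 and 12.10 with K78I, a difference of 0.08 ± 0.26. ACACB read 6.11, 6.44 and 6.32 with LKB1, 6.07 and 5.96 with pBABE, and 6.30, 6.602 and 6.32 with K78I, a difference of 0.08 ± 0.17. Their limma adjusted p were 0.834, 0.932 and 0.882, and each gene's LKB1 arrays overlapped its controls.

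The test of the difference between the lines called no member, where 3.6% of genes were called; HMGCS1 and CYP51A1 were the members with an unadjusted p below 0.05, at 0.0112 and 0.0287. HMGCS1 had the largest difference among the members, -1.12 ± 0.39 (limma, adjusted p = 0.154). It passed when A549 K78I replicate 2 was left out, at -0.87 (limma, adjusted p = 0.0321), or A549 K78I replicate 3, at -1.30 (limma, adjusted p = 0.0482). For CYP51A1 it was -0.32 ± 0.13 (limma, adjusted p = 0.252). Without the 2 A549 controls whose STK11 goes against the label, 1 member was called, with a negative difference. The same count was found without the 3 control arrays low in cell cycle genes. With all arrays kept at equal weight, the response of these genes is therefore not shown to differ between A549 and H2122.

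Over the mean of both lines, 13.6% of genes passed, and among the members CYP51A1 and SREBF1 did. CYP51A1 fell by 0.23 ± 0.07 (limma, adjusted p = 0.0317), most of it from A549. SREBF1 fell by 0.25 ± 0.08 (limma, adjusted p = 0.0388), with nearly equal parts from both lines, -0.27 and -0.24. Both calls sat close to the threshold. The SREBF1 call was lost without A549 pBABE replicate 1 or 2, A549 K78I replicate 1 or 3, A549 LKB1 replicate 2 or 3, H2122 LKB1 replicate 1 or 2, H2122 pBABE replicate 2 or any one H2122 K78I array, at limma adjusted p between 0.0511 and 0.109. The CYP51A1 call was lost without A549 pBABE replicate 1, A549 LKB1 replicate 1 or 3, H2122 K78I replicate 2 or any one H2122 LKB1 array, at limma adjusted p between 0.0508 and 0.1002. HMGCS1 had a mean difference of -0.51 ± 0.19 that did not pass (limma, adjusted p = 0.1005).

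Against single controls, 5.25% of genes passed for LKB1 against K78I in A549, with HMGCS1 the only member, and 5.5% for LKB1 against pBABE, with CYP51A1 the only one. In H2122 these shares were 3.89% and 5.77%, with no member among them. K78I against pBABE called no gene in either line by limma, that is 0% of genes. The unadjusted limma p was below 0.05 for 472 genes in A549 and 1260 in H2122. STK11 itself was not called in H2122, at 5.00 ± 0.94 (limma, adjusted p = 0.167). Its SE comes from a spread shared with A549, where 2 control arrays read against their labels. The lack of calls therefore does not show that the 2 controls are alike. The largest of these member differences between K78I and pBABE in A549 were -0.48 ± 0.40 for FASN and 0.47 ± 0.31 for HMGCS1, and in H2122 0.46 ± 0.35 for HMGCS1, none of which passed. Without A549 K78I replicate 2, whose STK11 goes against its label, the A549 differences were 0.02 for FASN and -0.04 for HMGCS1, and without H2122 pBABE replicate 2 that of HMGCS1 in H2122 was 0.16. Comparisons of LKB1 with each control share the LKB1 arrays.

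Some of the members' most extreme levels lay on the arrays that stood low in cell cycle genes. On A549 K78I replicate 2 HMGCS1 stood at 1.61 against the A549 mean, FASN at -1.38, SCD at -1.24, ACACA at -0.96 and ACACB at -0.60. On A549 pBABE replicate 1 the same genes deviated in the same directions by less: HMGCS1 at 0.42, FASN at -0.80, ACACA at -0.53, ACACB at -0.29 and SCD at -0.27. On H2122 pBABE replicate 2, by contrast, SREBF2 stood at 0.82 and SREBF1 at 0.29 against the H2122 mean, HMGCS1 at -0.59, and FASN, ACACA and SCD lay within 0.14 of it. The part that cell cycle state or sample quality plays in these levels was not tested. The fall of HMGCS1 and of CYP51A1 in A549 was measured without these arrays too, at -0.74 and -0.33.

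**Figure D3:**
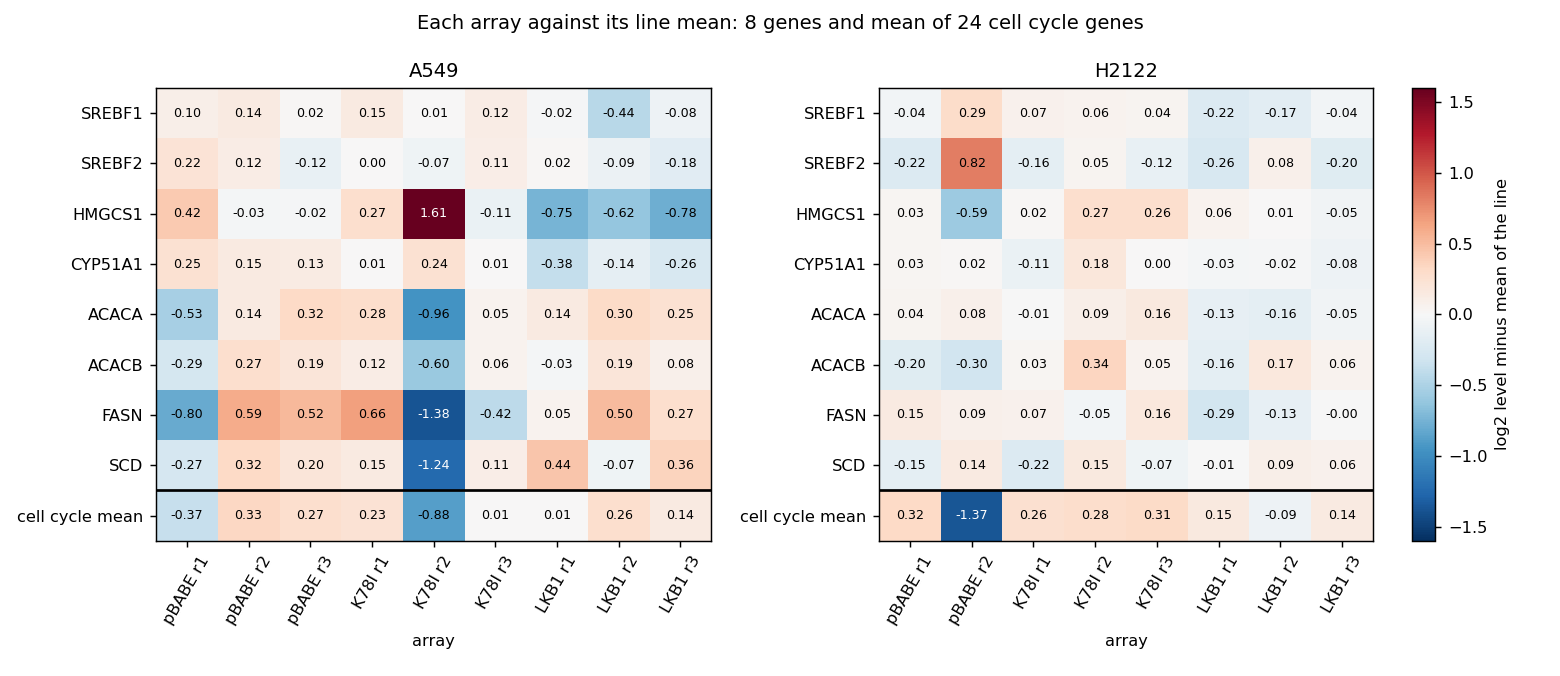
Log2 level of each gene on each array minus the mean of its line (colour and printed value), with the mean of 24 cell cycle genes in the bottom row; columns are arrays (r1 to r3, replicates) of A549 and of H2122. A549 K78I r2 has HMGCS1 at 1.61 and FASN at -1.38, and H2122 pBABE r2 has SREBF2 at 0.82 beside a cell cycle mean of -1.37.

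For most members the 2 lines differed more than LKB1 did from the mean of both controls, but not for HMGCS1 or ACACA in A549. Averaged over the 3 constructs, 6 of the 8 members differed between A549 and H2122, where 48.1% of all genes did. Given as A549 minus H2122, the differences were -0.65 ± 0.07 for SREBF1, -0.72 ± 0.12 for SREBF2, -1.11 ± 0.24 for FASN, -0.71 ± 0.17 for SCD and -0.76 ± 0.06 for CYP51A1, all lower in A549, with limma adjusted p between 8.28e-08 and 0.00315. A549 had higher ACACB, by 0.37 ± 0.11 (limma, adjusted p = 0.0132), a call lost without the 3 arrays whose labels conflict (limma, adjusted p = 0.0839). ACACA at -0.28 ± 0.15 and HMGCS1 at 0.05 ± 0.19 did not pass. For all 5 of these lower genes every A549 array was below every H2122 array. They had already been called lower, and the share of all genes separated in this way was not counted. The highest A549 and lowest H2122 arrays read 8.51 and 8.79 for SREBF1, 8.75 and 8.95 for SREBF2, 9.66 and 9.82 for FASN, 11.91 and 11.95 for SCD, and 10.13 and 10.53 for CYP51A1.

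Of the 17 cholesterol synthesis enzymes measured, which include CYP51A1 and HMGCS1, 13 were lower in A549 and none was higher. Among all 17958 genes, 4220 were lower in A549 and 4423 higher. LSS, which closes the ring to lanosterol, differed by -1.72 ± 0.18, MSMO1, a sterol methyl oxidase, by -1.37 ± 0.11, and IDI1, the isopentenyl diphosphate isomerase, by -1.25 ± 0.15. INSIG1, which holds SREBP back when sterols are plentiful and is itself an SREBP target, differed by -1.05 ± 0.24. Fatty acid genes were mixed, with 10 of 25 higher and 7 lower in A549: ELOVL2, an elongase of polyunsaturated fatty acids, was higher by 4.10 ± 0.12 and FADS2, a desaturase of them, by 3.25 ± 0.16, while ELOVL6, an elongase of saturated ones, was lower, at -1.46 ± 0.13. These genes between the lines were picked after their values were seen.

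With LKB1, the rest of the cholesterol list moved little. Of its 17 measured enzymes, which include HMGCS1 and CYP51A1, 3 were lower in A549 and none higher, none passed in H2122, and the median difference was -0.05 in both lines. Among all 17958 genes, 530 were lower and 985 higher in A549. Without the 2 A549 controls whose STK11 goes against the label 3 of the 17 enzymes were lower in A549, and without the arrays low in cell cycle genes 4 were. The third was SC5D, a desaturase late in the pathway, at 9.24 ± 0.19 (SD, n = 3) with LKB1 against 9.75 ± 0.12 (SD, n = 6) in the A549 controls, and fell by 0.51 (limma, adjusted p = 0.0086). It lost its call without A549 LKB1 replicate 2 (limma, adjusted p = 0.0635). In H2122 SC5D read 10.90 ± 0.15 with LKB1 against 10.69 ± 0.12 (SD, n = 5), and the difference between the lines was called, at -0.74 ± 0.16 (limma, adjusted p = 0.0178). That call was lost without A549 LKB1 replicate 2 or 3 or H2122 LKB1 replicate 1 (limma, adjusted p = 0.057, 0.0512 and 0.0625), without the 3 arrays whose labels conflict (0.0913) and with groups from source names (0.178).

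No gene of the 11 measured for SREBP processing and sterol sensing passed in either line, with medians of -0.22 in A549 and -0.06 in H2122. Over both lines NR1H3, the liver X receptor alpha, a sterol sensor that raises SREBF1, was lower, at -0.46 ± 0.12 (limma, adjusted p = 0.0185), beside SREBF1 itself. The NR1H3 call was lost without A549 LKB1 replicate 3 or H2122 LKB1 replicate 2 (limma, adjusted p = 0.0619 and 0.0505). None of the 7 AMPK subunit genes passed against both controls in either line. PRKAA2, a catalytic subunit, was higher against pBABE alone in A549, at 0.79 ± 0.21 (limma, adjusted p = 0.0357). In H2122 it went the other way, with every LKB1 array below every control, as for 8.82% of all genes there. Without the 2 A549 controls whose STK11 goes against the label, 1 subunit gene was called higher in each line. The same count was found without the arrays low in cell cycle genes. The subunit gene called in H2122 was not PRKAA2.

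Of 25 genes of fatty acid synthesis and desaturation, 1 was higher and 1 lower in each line, a share close to that over all genes, 8.44% in A549 and 7.28% in H2122. The higher one was SCD5, a desaturase related to SCD, and it rose while SCD did not pass. SCD5 read 7.72 ± 0.30 (SD, n = 3) with LKB1 in A549 against 6.64 ± 0.50 (SD, n = 6) in controls, and 7.22 ± 0.15 in H2122 against 5.93 ± 0.45 (SD, n = 5). Its differences were 1.09 ± 0.25 and 1.36 ± 0.26 (limma, adjusted p = 0.0119 and 0.00372). In A549 the call was lost without LKB1 replicate 1 or 3 (limma, adjusted p = 0.0712 and 0.0767), and in H2122 without the 3 arrays whose labels conflict (limma, adjusted p = 0.127). The lower gene in H2122 was MID1IP1, which activates acetyl-CoA carboxylase, at -0.60 ± 0.16 (limma, adjusted p = 0.0322), a call that ended without any one H2122 LKB1 array, K78I replicate 1 or 3 or pBABE replicate 2, at limma adjusted p between 0.0587 and 0.137, and without the 3 arrays whose labels conflict (adjusted p = 0.223) or with groups from source names (0.922). In A549 it was OXSM, the mitochondrial ketoacyl synthase, at -0.47 ± 0.13 (limma, adjusted p = 0.0363), which lost its call without any one A549 LKB1 array, A549 pBABE replicate 1 or 2 or H2122 LKB1 replicate 3, at limma adjusted p between 0.0522 and 0.117. Over the mean of both lines 3 of the 25 were higher and 2 lower, where 13.6% of all genes were called. The higher were SCD5, FADS2 and ELOVL5. The lower were MID1IP1 at -0.53 ± 0.11 and OXSM at -0.40 ± 0.09 (limma, adjusted p = 0.0046 and 0.0111). The calls of these lower genes were lost under 1 and 2 of 29 alternatives, among them groups from source names.

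Among the list genes called in both lines, the largest differences were those of sterol transport genes. ABCA1, the transporter that exports cholesterol to apolipoproteins, read 7.62 ± 0.24 (SD, n = 3) with LKB1 in A549 against 5.43 ± 0.24 (SD, n = 6), and 8.83 ± 0.21 in H2122 against 6.55 ± 0.37 (SD, n = 5). It rose by 2.19 ± 0.20 and 2.29 ± 0.21 (limma, adjusted p = 8.36e-06 and 1.01e-05). NPC2, which hands cholesterol out of lysosomes, rose by 1.32 ± 0.16 in A549 and 1.59 ± 0.16 in H2122 (limma, adjusted p = 9.49e-05 and 3.14e-05). In each line 3 of the 12 genes measured in this list were higher, beside 985 of all 17958 genes in A549 and 896 in H2122. SOAT1, which esterifies cholesterol, was the 1 lower gene in A549, where 530 of all genes were lower. It differed by -0.47 ± 0.13 (limma, adjusted p = 0.0298). That call was lost without any one A549 LKB1 array or pBABE replicate 1 or 2, at limma adjusted p between 0.0568 and 0.13. The list medians were 0.29 and 0.23.

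In the list for triglyceride and phospholipid synthesis, 6 of 18 genes measured were higher in A549, with none lower, and 1 of 18 was higher in H2122. Not all of them make these lipids, since the list also holds LIPE and PLIN2. Over all 17958 genes, 985 were higher and 530 lower in A549, and 896 were higher and 412 lower in H2122. LPIN2, a phosphatidate phosphatase, rose by 1.26 ± 0.19 in A549 (limma, adjusted p = 0.00056) and had a difference of -0.11 in H2122 that did not pass. ACSL1, an acyl-CoA synthetase, rose by 0.55 ± 0.11 in A549 (limma, adjusted p = 0.00622). ACSL4, which activates arachidonic acid, was the gene called in both lines, by 0.39 ± 0.09 in A549 and 0.96 ± 0.10 in H2122 (limma, adjusted p = 0.0191 and 3.14e-05). Its A549 call ended without any one A549 LKB1 array, at limma adjusted p between 0.0642 and 0.0836. The count of 6 in A549 fell to 3 when each array was centred on its median.

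In fatty acid oxidation 2 of 19 genes were lower in A549, where 8.44% of all genes were called, and none passed in H2122. The list medians were -0.01 and -0.26, beside -0.02 and -0.04 over all genes, and 17 of the 19 genes had a negative difference in H2122. Without the 3 arrays whose labels conflict the H2122 median was -0.06. PPARGC1A, a coactivator of mitochondrial and gluconeogenic genes, read 4.67 ± 0.34 (SD, n = 3) with LKB1 against 7.97 ± 1.64 (SD, n = 6) in the A549 controls, and fell by 3.30 ± 0.79 (limma, adjusted p = 0.0164); this call was lost without LKB1 replicate 2 or 3 (limma, adjusted p = 0.0685 and 0.0781). The other was CPT2, which completes fatty acid import into mitochondria, at -0.41 ± 0.12 (limma, adjusted p = 0.0421), a call lost under 16 of 30 alternatives. Over the mean of both lines 3 of the 19 were lower and none higher, where 13.6% of all genes were called. They were CPT2 at -0.37 ± 0.08, PPARGC1A at -2.42 ± 0.57 and SLC25A20 at -0.58 ± 0.18 (limma, adjusted p = 0.0078, 0.0102 and 0.0392). These calls were lost under 2, 2 and 17 of 29 alternatives, and all 3 without the arrays whose labels conflict.

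**Figure D4:**
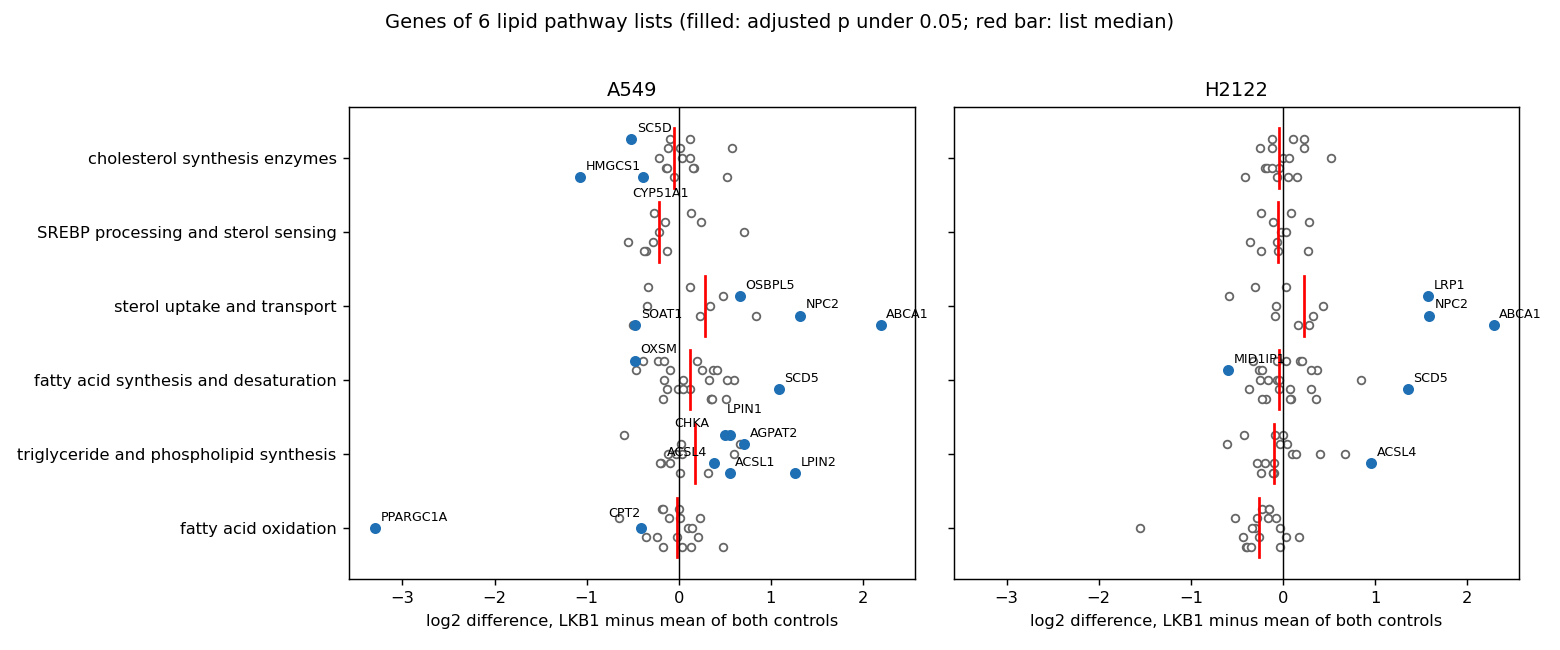
Log2 difference of LKB1 from the mean of both controls (horizontal axis) for each measured gene of 6 lipid lists, in A549 and H2122; filled, named points passed an adjusted p of 0.05 and red bars are list medians. ABCA1 and NPC2 lie far to the right in both lines, and in the cholesterol synthesis list the filled points are HMGCS1, CYP51A1 and SC5D in A549.

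The genes whose levels followed each member most closely over the 17 arrays, after each line's mean was subtracted, differed from member to member. These correlations are descriptions, since all genes share the arrays and a few arrays lie far out, so each is given again over the 14 arrays left without the 3 that were low in cell cycle genes. HMGCS1 was nearest to PPP2R2A, with r = 0.947 over 17 arrays and 0.841 over 14. CYP51A1 was nearest to SRPRB, with r = 0.915 and 0.874. SREBF1 was nearest to B3GNT3, with r = 0.882 and 0.88, the smallest change among the 8. SREBF2 was nearest to GABARAPL2, with r = 0.933 and 0.826.

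FASN was nearest to ZC3HAV1, with r = 0.947 over 17 arrays and 0.917 over 14, and the same gene came second for ACACA, with r = 0.953 and 0.614. ACACA was nearest to CAMKK2, with r = 0.957 and 0.645. SCD was nearest to MAGED1, with r = 0.941 and 0.733, and ACACB to GPR63, with r = 0.949 and 0.834. Among these nearest pairs, r dropped most for ACACA and SCD when the 3 arrays were left out.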

How the data were processed

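The deposited table holds log2 levels for each transcript cluster. Per the submitters' processing notes, the authors made them with RMA in Affymetrix Expression Console 1.1; RMA makes the arrays' distributions alike, so a shift of most genes one way cannot be seen. Per the labels' protocols each reaction started from 130 ng of total RNA. The arrays' genome build, not given in the sources used here, bears on no value.

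Of 33297 probe sets, 19181 carried 1 symbol in the platform annotation, 2055 several, and 12061 are unnamed here. The brightest probe set per gene left 17958 genes. Groups came from sample titles. limma 3.58.1 (lmFit, eBayes; R 4.3.3) was fitted over 6 groups with 11 residual degrees of freedom and Benjamini-Hochberg adjustment over all genes, and an adjusted p under 0.05 counts as called or passed. Controls are the mean of the pBABE and K78I groups with equal weight. The number of arrays limits the precision; within groups, differences between replicates had an SD over genes of 0.226 to 0.608. The code was tested on simulated data. Text names the 8 members, STK11, up to 4 called genes per list and comparison, and each member's nearest genes by Pearson correlation. The members and gene lists were chosen with earlier results of these data known. Alternatives changed labels, arrays, scaling, filters, probe sets and the variance model; 17 left out 1 array each and 14 changed something else.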

Additional observations from a re-analysis of the deposited data

Results flagged for a closer look

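Among 16 sets of control arrays, 1 for each member and line, 3 held an array far from the rest. The cutoff is one that chance alone passes in about 1 in 20 sets drawn from a single normal distribution. Each set here pools pBABE and K78I arrays, and the sets share arrays, so the observed share cannot be set against that rate. SREBF2 read 10.03 on H2122 pBABE replicate 2, with the next of the 5 control arrays at 9.26. HMGCS1 read 10.06 on A549 K78I replicate 2, with the next of 6 at 8.88, and 7.85 on H2122 pBABE replicate 2, with the next of 5 at 8.46. These are arrays low in cell cycle genes, and A549 K78I replicate 2 also has an STK11 level against its label. The part of these features in the outlying levels was not tested.

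The test of the difference between lines, LKB1 effect in A549 minus that in H2122, called 7 genes of the lipid lists by limma: SC5D at -0.74, ERLIN1 at -0.62, OSBPL5 at 1.26, SOAT1 at -0.76, LPIN2 at 1.38, ACSL1 at 0.79 and ACSL4 at -0.57. By list, 1 of 17 cholesterol synthesis enzymes was called and 1 of 11 genes of SREBP processing and sterol sensing. For sterol transport it was 2 of 12, and for triglyceride and phospholipid synthesis 3 of 18. No gene was called of the 25 for fatty acid synthesis and desaturation or the 19 for fatty acid oxidation. Over all 17958 genes, 647 were called, or 3.6%. All 7 of the list genes lost their call under some alternatives. ERLIN1, a membrane protein of the SREBP control machinery, had the highest adjusted p, 0.0495, and lost its call under 20 of 29. SOAT1 lost it under 12, ACSL4 under 11, with a change of sign with groups from source names, SC5D under 5 and ACSL1 under 3. LPIN2 and OSBPL5, an oxysterol-binding protein relative, each lost it under 2, namely with groups from source names and without the arrays whose labels conflict.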

How the results depend on the processing

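The 12 called values of the 8 members kept their direction in all 349 alternative fits and lost their call in 50. The 76 uncalled values gave a call in 25 of 2233: 24 in the same direction and 1 reversed. That one was HMGCS1 between the lines, -0.27 (limma, adjusted p = 0.0122) without the 3 control arrays low in cell cycle genes; 117 others changed sign without a call. ACSL4's difference between lines turned to 0.0625 with groups from source names.

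The number of members called in A549 against controls was 2, 0 in a fit per line, and 0 to 2 with 1 array left out. In H2122 it was 0, and 0 to 1 with 1 array left out. For the mean of both lines it was 2, 0 with a replicate block, with source names or without the arrays whose labels conflict, 1 without the low cell cycle arrays, 4 with array weights, and 0 to 2 with 1 array left out. For the difference between lines it was 0, and 1 without the 2 arrays whose STK11 goes against the label, without the low cell cycle arrays, with array weights and at most with 1 array left out. For LKB1 against K78I in A549 it was 1, 0 without the arrays whose labels conflict and per line, 2 with averaged probe sets or the dimmer probe sets, and 0 to 2 with 1 array left out. For LKB1 against pBABE in A549 it was 1, 0 without conflicting labels and per line, 2 without either set of odd arrays or with array weights, and 0 to 2 with 1 array left out. In H2122 LKB1 against pBABE and K78I against pBABE gave 0, and 0 to 1 with 1 array left out. Between the lines it was 6, and 2 with the replicate block, which left SREBF1 and CYP51A1.

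Same-numbered arrays did not all deviate together (correlations -0.64 to 0.42), so the replicate numbers were not taken as paired. The dimmer probe sets and the list counts under other settings were added after seeing the data. No detection calls were used, so low levels cannot be told from background.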
